A study of Mus musculus with 2 samples.

Results

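The genes described here are 5 mouse microRNA (miRNA) genes: Mir335 from an intron of the imprinted gene Mest, Mir296 and Mir298 from the imprinted Gnas region, Mir675 from the imprinted noncoding RNA H19, and Mir184. They are 5 of the 1973 miRNA genes in the count tables. They were selected by gene symbol, after their counts in these libraries were known, as miRNAs of imprinted loci outside the Dlk1-Dio3 region together with Mir184. Their counts and the order of their levels are therefore a description and were not tested. The libraries hold small RNA (a size range below 30 in the labels) of whole hindbrain from B6NCrl mouse embryos at embryonic day 12.5. There is 1 group of 2 biological replicates, a pool of 120 embryos in replicate 1 and of 88 embryos in replicate 2, both of mixed sex. No embryo carried a labelled treatment or mutation, so no condition is set against another.

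An imprinted gene is transcribed mainly from the allele of a given parent, and miRNAs made from its transcript follow that allele. Mest, the Gnas antisense transcript Nespas and their miRNAs are known in mouse as paternally expressed, and H19 with Mir675 as maternally expressed. Each miRNA gene makes a hairpin RNA that Drosha and Dicer cut into a 5p and a 3p arm, and the loaded arm binds messenger RNAs through its seed, bases 2 to 8. The libraries pool embryos and the tables hold no allele counts, so parental origin was not measured. In whole tissue, fewer cells of a type and less RNA per cell cannot be told apart.

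The hairpins that carry the counts are given 5′ to 3′ with both annotated arms in capitals, since a count belongs to a hairpin and not to an arm. The sequences and positions are from RefSeq on GRCm38.p6, which matched all 5 genes, and equal the GENCODE M21 transcripts.
Mir335: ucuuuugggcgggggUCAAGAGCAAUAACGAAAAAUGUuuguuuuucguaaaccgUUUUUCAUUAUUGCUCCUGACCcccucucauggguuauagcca
Mir296: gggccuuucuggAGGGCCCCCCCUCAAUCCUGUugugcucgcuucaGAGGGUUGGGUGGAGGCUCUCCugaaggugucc
Mir298: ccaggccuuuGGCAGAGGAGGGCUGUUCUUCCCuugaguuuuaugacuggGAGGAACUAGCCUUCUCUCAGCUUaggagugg
Mir675: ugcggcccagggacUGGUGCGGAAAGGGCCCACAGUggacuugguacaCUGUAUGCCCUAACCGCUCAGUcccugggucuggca
Mir184: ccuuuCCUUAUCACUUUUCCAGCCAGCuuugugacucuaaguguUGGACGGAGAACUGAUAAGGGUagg
The longest run of identical bases between any pair of these hairpins was 7. A run of 7 was shared by Mir296 with each of Mir298, Mir335 and Mir675, and the other pairs shared 5 or 6 bases. None of the 5 has an identical run of 20 bases in another M21 miRNA hairpin, whereas 87 of the 371 detected genes do. The members' counts are therefore not split with a near-identical miRNA gene, although reads matching several genomic positions are assigned to no gene in these tables.

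The arms are listed with their seeds in capitals, because the seed largely sets the targets of an arm.
miR-335-5p: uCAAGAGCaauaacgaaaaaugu
miR-335-3p: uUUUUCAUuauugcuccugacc
miR-296-5p: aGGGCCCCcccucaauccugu
miR-296-3p: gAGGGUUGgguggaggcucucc
miR-298-5p: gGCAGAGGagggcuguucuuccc
miR-298-3p: gAGGAACUagccuucucucagcuu
miR-675-5p: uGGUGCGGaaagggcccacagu
miR-675-3p: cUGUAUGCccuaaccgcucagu
miR-184-5p: cCUUAUCAcuuuuccagccagc
miR-184-3p: uGGACGGAgaacugauaagggu
All 10 arms have different seeds. No arm of another gene among the 1738 mature arms of the RefSeq table shares any of them, while 32.0% of the arms in that table share their seed with another gene. The members therefore form no seed family, among themselves or with other listed miRNAs. The GC content of the arms spanned 30.4% for miR-335-5p to 68.2% for miR-296-3p. Both Mir335 arms were low in GC (the 3p arm had 36.4%), and both Mir296 arms were high (the 5p arm had 66.7%).

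**Figure D1:**
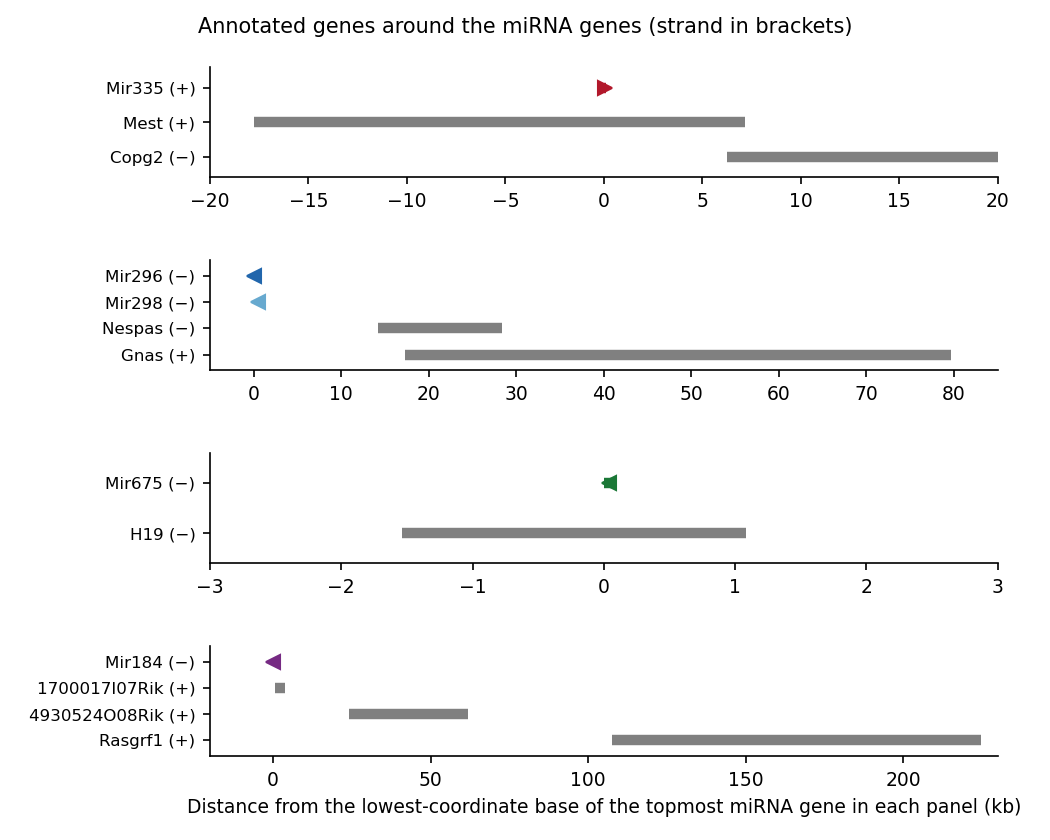
Annotated GENCODE M21 genes around the miRNA genes, as distance in kb from the lowest-coordinate base of the topmost miRNA gene of each panel (bars are gene spans, arrowheads give the strand of the miRNA genes, and bars are cut at the panel edge). Mir335 lies inside Mest and Mir675 inside H19, while Mir296 and Mir298 lie 14.1 and 13.7 kb from Nespas and Mir184 lies 108 kb from Rasgrf1.

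Mir335 (ENSMUSG00000065501.1) lies at chr6:30741299-30741396 on the plus strand, in an intron of Mest, which encodes a hydrolase-like protein of embryonic mesoderm and brain. In all 7 Mest transcripts that span it, it lies in the same 1316-base intron. Mir675 (ENSMUSG00000076275.1), at chr7:142577064-142577147 on the minus strand, is exonic in H19: it lies in exon 1 of 2 H19 transcripts, in exon 2 of another and in an intron of another. Both Mir675 arms therefore occur in full in H19 RNA. Mir296 (ENSMUSG00000065521.1), at chr2:174267047-174267125, and Mir298 (ENSMUSG00000065410.1), at chr2:174267504-174267585, are both on the minus strand with 378 bases between them. No annotated M21 transcript contains them, and the nearest long gene is Nespas, 14.1 kb from Mir296 and 13.7 kb from Mir298 on the same strand. Gnas, which encodes a G protein alpha subunit, starts 17.2 kb from Mir296 on the opposite strand. Mir184 (ENSMUSG00000065596.1), at chr9:89802260-89802328 on the minus strand, also lies in no annotated transcript. The nearest gene to it, the noncoding 1700017I07Rik, starts 541 bases away on the opposite strand, and Rasgrf1, a gene known to be imprinted in mouse, lies 108 kb away. The plot of the loci shows these distances.

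Levels are counts per 1000000 reads (CPM) assigned to miRNA genes on the gene's own strand, 2764276 counts in replicate 1 and 3946444 in replicate 2. A read of a small RNA library was taken to stand for a whole mature miRNA, so no scaling by length was applied. Intervals for counts are exact Poisson 95% intervals. The floor for a gene with 0 counts was fixed at 3 counts, a rule separate from these intervals. It was 1.09 CPM for replicate 1 and 0.760 CPM for replicate 2. Intervals and floors cover counting error only. Per 1000000 of all reads tallied, unassigned ones included, Mir335 averaged 27150, Mir296 2866, Mir298 2026, Mir675 22.0 and Mir184 1.34. Of the listed miRNA markers of hindbrain and neural tissue, 10 of 13 measured were detected, against 18.8% of all genes. Their sums were 54953 and 51309 CPM in replicates 1 and 2. Most of it came from the Hox cluster miRNAs Mir10a (26347 and 25880 CPM) and Mir10b (15998 and 14531 CPM). Mir124a-2 was detected with only 29 and 37 counts. Not detected were Mir9-2 (7 counts in each library), Mir124a-1 (5 and 10 counts) and Mir124a-3 (3 in each), genes of neural miRNAs that have near-identical copies. Marker lists of other tissues were detected too: 7 of 7 for surface and corneal epithelium, 5 of 5 for mesenchyme and cartilage, and 4 of 7 for muscle. The neural count therefore does not identify the tissue, which is taken from the labels.

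**Figure D2:**
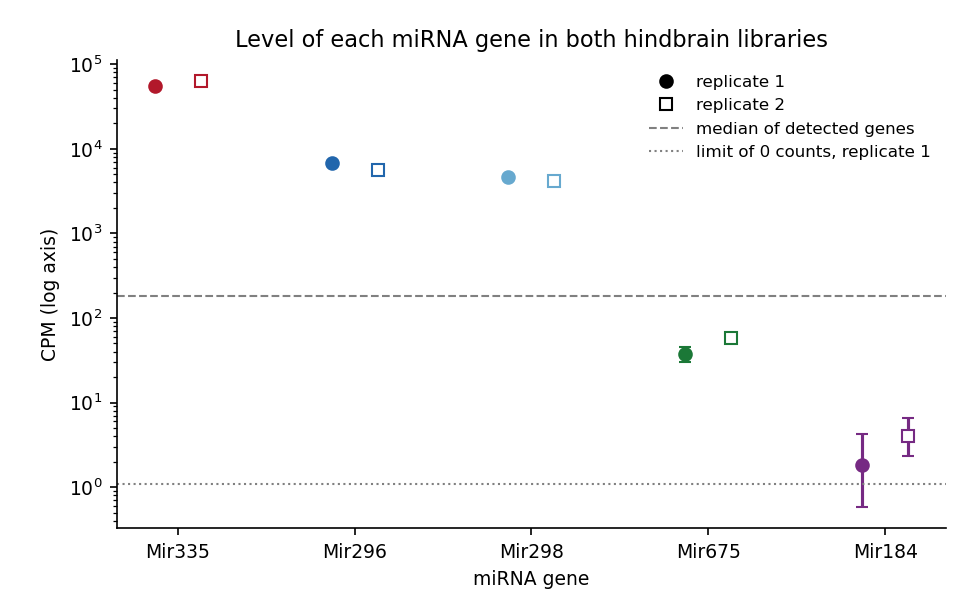
CPM of each miRNA gene on a log axis, filled circles for replicate 1 and open squares for replicate 2, with exact Poisson 95% intervals of the counts. Mir335, Mir296 and Mir298 lie above the median of the detected genes (dashed, 183 CPM), and Mir675 and Mir184 below it. The interval of Mir184 in replicate 1 reaches below the floor fixed for 0 counts (dotted, 1.09 CPM).

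The members ranged from Mir335, among the miRNA genes with the most assigned counts, to Mir184 at a few reads. Mir335 exceeded Mir184 by 30625-fold and 15449-fold in replicates 1 and 2. Mir335, studied as a suppressor of metastasis in human breast cancer cells, had 153124 counts in replicate 1 and 247189 in replicate 2, or 55394 CPM (interval 55117 to 55672) and 62636 CPM (62389 to 62883). It ranked 2 of 1973 genes in both libraries by assigned counts. Reads matching several genomic positions, 32.7% and 33.4% of those tallied in replicates 1 and 2, count for no gene. Genes with near-identical copies can therefore rank too low. By itself Mir335 gave 5.54% of the assigned counts in replicate 1 and 6.26% in replicate 2.

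Mir296 and Mir298 came next. Mir296, known in mouse embryonic stem cells for targeting Nanog, had 18687 and 22421 counts in replicates 1 and 2, or 6760 CPM (6664 to 6858) and 5681 CPM (5607 to 5756). Its rank was 39 in replicate 1 and 42 in replicate 2. Mir298, reported in mouse to act on the Bace1 message, had 12917 and 16269 counts, or 4673 CPM (4593 to 4754) and 4122 CPM (4059 to 4186), and ranked 50 in both libraries. Together the Gnas region hairpins gave 1.14% of the counts in replicate 1 and 0.980% in replicate 2. Their ranges did not overlap: Mir296 stood above Mir298 in each library, 1.45-fold in replicate 1 and, in replicate 2, 1.38-fold.

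Mir675 was far lower. This miRNA, which limits growth of the mouse placenta, had 103 and 231 counts in replicates 1 and 2, or 37.3 CPM (30.4 to 45.2) and 58.5 CPM (51.2 to 66.6). It ranked 263 in replicate 1 and 254 in replicate 2, below the median of detected genes at 183 CPM. The excess of Mir335 over it was 1487-fold in replicate 1 and 1070-fold in replicate 2.

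Mir184, a miRNA abundant in corneal and lens epithelium and studied in adult neural stem cells of mouse, was close to the limit of these libraries. It had 5 counts in replicate 1 and 16 in replicate 2, or 1.81 CPM (0.587 to 4.22) and 4.05 CPM (2.32 to 6.58). The lower bound in replicate 1 is under the floor of 1.09 CPM fixed for 0 counts. At this depth its level is known only to within these intervals.

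**Figure D3:**
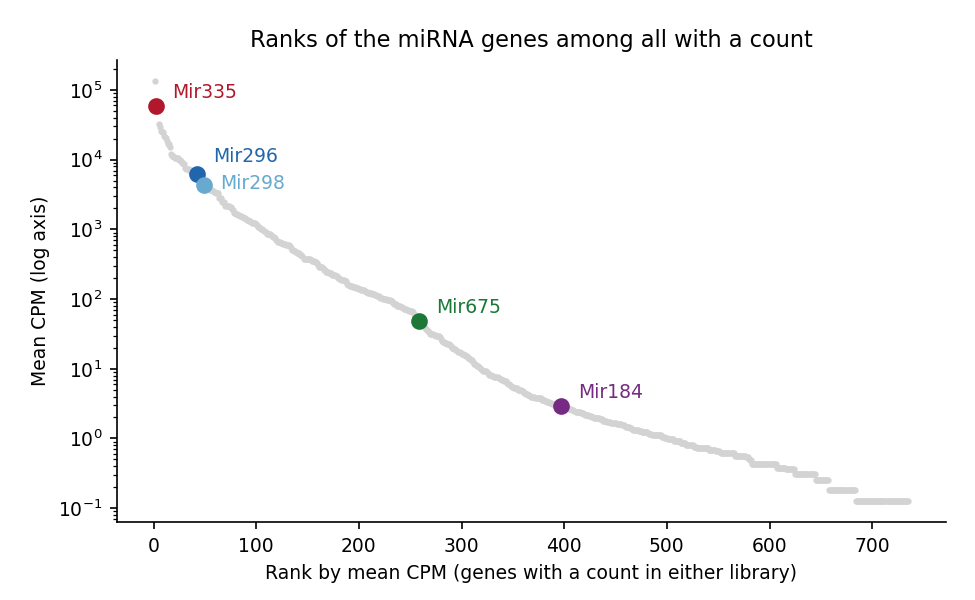
Mean CPM of all genes with a count in either library (grey, log axis) against their rank, with the 5 genes coloured. Mir335 is at rank 2, Mir296 and Mir298 at ranks 42 and 49, Mir675 at 259 and Mir184 at 397.

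Detection meant a minimum of 10 counts in each of the libraries. By this rule 4 members were detected, and Mir184 was not, because of its 5 counts in replicate 1. Among all genes, 18.8% were detected, and nothing is read from the members' share because they were chosen with their levels known. The order Mir335, Mir296, Mir298, Mir675, Mir184 was the same in both libraries, and no neighbours in it had overlapping ranges. The gap was 8.19-fold and 11.0-fold between Mir335 and Mir296 in replicates 1 and 2. Between Mir298 and Mir675 it was 125-fold and 70.4-fold, and between Mir675 and Mir184 20.6-fold and 14.4-fold, the last resting on the few Mir184 counts. As mean ± SD (n = 2), the levels were 59015 ± 5121 CPM for Mir335, 6221 ± 763 for Mir296, 4398 ± 389 for Mir298, 47.9 ± 15.0 for Mir675 and 2.93 ± 1.59 for Mir184. The plot of mean CPM against rank places them among all genes with a count.

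The 5 members together gave 6.69% and 7.25% of the counts in replicates 1 and 2, with exact Clopper-Pearson 95% intervals of 6.657% to 6.716% and of 7.225% to 7.276%, a mean of 6.97% ± 0.399 (SD, n = 2). The 58 miRNA genes of the imprinted Dlk1-Dio3 span on chromosome 12 gave 6.31% and 6.74% in the same libraries, or 6.53% ± 0.305. The members' sum was the higher in each library, but the ranges over the libraries overlapped. Because reads matching several genomic positions are assigned to no gene, any span gene with a near-identical copy can be counted too low. The members have no near-identical miRNA gene, so their sum and that of the span may not be affected alike. How far this moves the comparison was not tested. Nearly all of the members' sum was Mir335: the other 4 members added 1.15% in replicate 1 and 0.987% in replicate 2. The reads on the opposite strand were 2 for Mir335 and 1 for Mir675 in replicate 2, and 0 for every other member and library. Adding the opposite strand therefore hardly changes the members' counts.

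Mir335 was slightly lower in replicate 1 than in replicate 2, and both Gnas region hairpins were slightly higher. For Mir335 the ratio of replicate 1 to replicate 2 was 0.884, with an exact binomial 95% interval for counting error of 0.879 to 0.890. For Mir296 it was 1.19 (1.17 to 1.21) and for Mir298 1.13 (1.11 to 1.16). These 3 intervals exclude equal levels, yet they hold no variation between pools of embryos. An edgeR fit across 393 genes put the biological coefficient of variation, the spread left after counting noise, at 17.4%. The members' SD between libraries was 8.68% of the mean for Mir335, 12.3% for Mir296 and 8.85% for Mir298, all under that value. Differences of this size were common: 62.3% of the 393 genes that averaged 10 counts or more were farther apart than Mir335, 48.1% than Mir296 and 61.1% than Mir298.

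**Figure D4:**
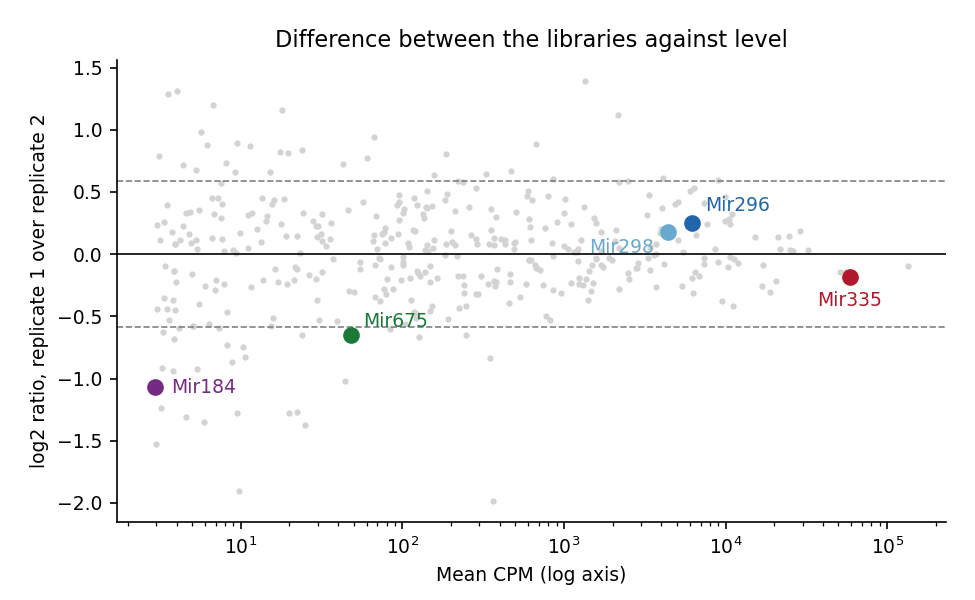
The log2 ratio of replicate 1 to replicate 2 against mean CPM (log axis) for the 393 genes averaging 10 counts or more (grey), with the 5 genes coloured and 1.5-fold marked by dashed lines. Mir335, Mir296 and Mir298 lie inside the lines, and Mir675 and Mir184 lie below the lower line, higher in replicate 2.

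Mir675 and Mir184 were farther apart between the libraries. The ratio of replicate 1 to replicate 2 was 0.638 (0.50 to 0.806) for Mir675 and 0.476 (0.128 to 1.27) for Mir184. The interval of Mir675 excludes equal levels and that of Mir184 includes them, and both cover counting error only. The SD was 31.4% of the mean for Mir675, above the 17.4% of the fit, and includes counting noise. Of the 393 genes, 12.5% were farther apart than Mir675 and 4.07% than Mir184. In all, 2 of the 5 members were at least 1.5-fold apart, against 15.5% of the 393 genes. Both were higher in replicate 2, as were 7.38% of the 393 genes by this rule. The members' median absolute log2 ratio was 0.25 and that of the 393 genes 0.24. No test was made between the libraries, which are replicates of the same group.

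Marker miRNAs of some other tissues differed between the libraries in the same comparison. Of 8 listed miRNAs of skeletal and heart muscle, 7 were measured and 4 detected, against 18.8% of all genes. Their sums were 169 and 640 CPM in replicates 1 and 2, a ratio of 0.263. Most of both sums came from Mir206 (146 and 579 CPM). Mir1a-1 and Mir133a-1 had 0 counts in both libraries. Each has a further copy in the list, Mir1a-2 and Mir133a-2, and reads matching several genomic positions are assigned to no gene. Their 0 counts therefore do not show absence. The 5 mesenchyme and cartilage markers, all detected, summed to 22487 and 23605 CPM. The ratio of replicate 1 to replicate 2 was 1.25 for Mir214 and below 1 for the other 4 of them: 0.749 for Mir140, 0.670 for Mir199a-1, 0.714 for Mir199a-2 and 0.693 for Mir199b. The 7 markers of surface and corneal epithelium, all detected, came to 9660 and 6470 CPM, a ratio of 1.49. They did not run one way: the ratio was 2.62 for Mir200c, 2.17 for Mir429, 1.85 for Mir200b and 1.75 for Mir141, but 1.03 for Mir203, 1.02 for Mir200a and 0.871 for Mir205. In the remaining lists the ratio of the sums was 0.979 for pigment epithelium and choroid plexus and 1.11 for endothelium. It was 0.840 for erythroid and 1.19 for leukocyte markers, and 1.24 for liver, where the only marker, Mir122, had 34 and 39 counts. The part of any of these tissues in the Mir675 and Mir184 values was not tested.

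By level in both libraries, the genes nearest to Mir335 were Mir100 (52244 CPM in replicate 1 and 57778 in replicate 2) and Mir17 (48251 and 53339). Likeness was the Euclidean distance of log2 CPM over the 2 libraries among detected genes, which was 0.144 for Mir100 and 0.306 for Mir17. Mir100 is of the miR-99/100 family and Mir17 of the miR-17-92 cluster. Nearest to Mir296 were Mir652 at a distance of 0.090 (7118 and 5887 CPM) and Mir151 at 0.141 (6952 and 6241 CPM). Nearest to Mir298 were Mir361 at 0.209 (4247 and 3695 CPM) and Mir541 at 0.218 (4031 and 4249 CPM). Of these, Mir541 lies in another imprinted region, the Dlk1-Dio3 span. Mir675 was nearest to Mir326 at 0.248 (42.0 and 51.7 CPM) and Mir34b at 0.279 (44.9 and 55.5 CPM). For Mir184 the nearest were Mir5619 and Mir7083, both at 1.000 with 10 and 16 counts. None of these 10 genes lies within 1 Mb of its member.

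Mir483, in the paternally expressed growth factor gene Igf2, lies 77.8 kb from Mir675 and reached 852 and 862 CPM in replicates 1 and 2, from 2356 and 3403 counts. Mir675 was thus far below Mir483 in each library, and the ratio of Mir483 between the libraries was 0.988, against 0.638 for Mir675. The Mir344 genes, far from Mir675 on the same chromosome, lie between the imprinted genes Snrpn and Ndn. Of these, 2 of 13 were detected, against 18.8% of all genes. The higher of the 2 was Mir344f, with 36 counts in replicate 1 and 74 in replicate 2. Some of the others, such as Mir344d-1 to Mir344d-3, are numbered copies, and reads matching several genomic positions are assigned to no gene.

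Genes near the other members had levels of their own. Within 1 Mb of Mir335, 4 of 6 miRNA genes were detected, against 18.8% of all genes. They were Mir182 (11541 and 9776 CPM in replicates 1 and 2), Mir183 (7585 and 5253), Mir96 (3003 and 1994) and Mir29a (81.8 and 72.2), all on the opposite strand. Mir182, Mir183 and Mir96 lie close together, 572 to 575 kb from Mir335. All 4 detected genes were higher in replicate 1, while Mir335 was higher in replicate 2. Within 1 Mb of the Gnas region pair no other miRNA gene was detected: Mir6340 and Gm27591 had 0 counts in both libraries. No other miRNA gene of the tables lies within 1 Mb of Mir184.

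**Figure D5:**
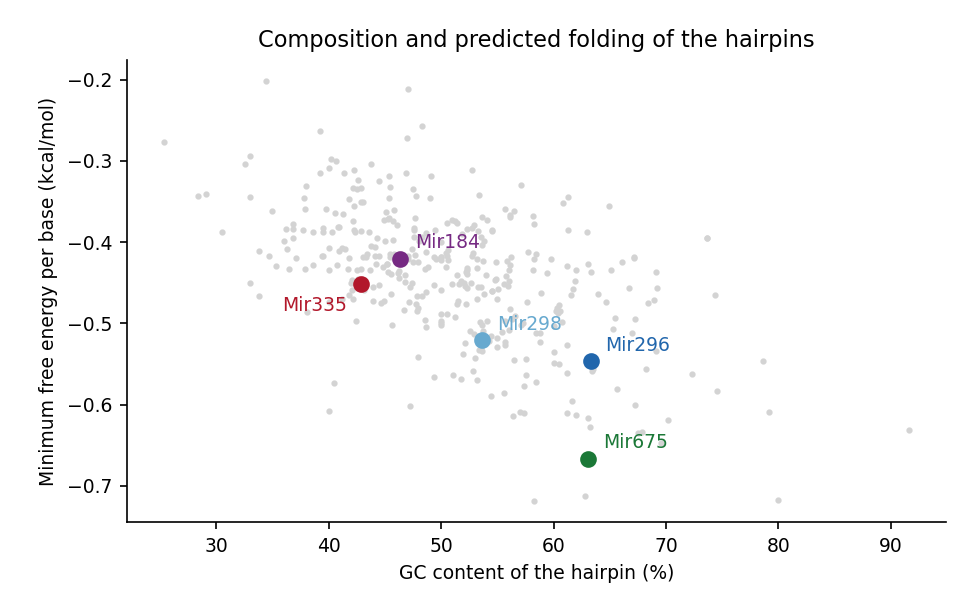
GC content (x axis, %) and minimum free energy per base (y axis, kcal/mol, lower is more stable) of the hairpins of the detected genes (grey), with the 5 genes coloured (Mir184 was not detected). Mir675 lies near the lower edge at -0.667 kcal/mol per base, and Mir335 and Mir184 lie among the bulk.

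The hairpins differed in composition and predicted folding, which the choice of members did not use. Mir335 had the longest hairpin, 98 bases, with 62 of 371 detected hairpins longer. Its GC content was 42.9%, against a median of 50.6% in detected hairpins, and its minimum free energy by RNAfold was -44.3 kcal/mol, or -0.452 per base. Mir296 had a GC content of 63.3% and an energy of -0.547 kcal/mol per base, and Mir298 had 53.7% and -0.521. Both Gnas region hairpins were thus more stable per base than the median detected hairpin, at -0.434. Mir675, of low count, had the most stable prediction of the 5, -56.0 kcal/mol or -0.667 per base at a GC content of 63.1%, and 0.809% of detected hairpins had a lower energy per base. Mir184 had the shortest hairpin, 69 bases, at 46.4% GC and -0.420 kcal/mol per base, near that median. The order of predicted stability per base was thus not the order of the counts in these 5 genes.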

How the data were processed

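The authors deposited, for each library, whole-number read counts per miRNA gene, made from alignments to mm10 and GENCODE M4, as the deposited text files state. The aligner, the trimming and the versions were not given in the sources used here. The tables have no header. The gene's own strand was taken to be the column with 304406 and 416737 reads outside genes in replicates 1 and 2, against 3001297 and 4268274 in the opposite column. Totals exclude the rows without a gene name: unmapped reads were 15.7% and 16.2% of the 5947846 and 8656439 reads tallied, multimapping reads 32.7% and 33.4%, and reads outside genes 5.12% and 4.81%.

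CPM was computed over all gene rows. IDs were matched without version to GENCODE M21 on GRCm38 (1894 of 1973; the other 79 had at most 3 counts). Ratios had 0.5 added to each count, and the call was 1.5-fold among genes averaging 10 counts or more. edgeR 4.0.16 (R 4.3.3, TMM, intercept only) gave the common dispersion. RNAfold 2.7.2 folded the hairpins, and Python 3.11.15, pandas 2.3.3, numpy 2.4.6, SciPy 1.17.1 and matplotlib 3.10.9 did the rest. The fold calls were tested on simulated data with counting noise only and with changes larger than 1.5-fold. That simulation cannot show how 1.5-fold calls behave at the spread between these libraries. The libraries' counts differed by more than sampling noise (chi-square 56.1 per degree of freedom), so they were not taken for repeat sequencing of 1 library. That both are biological replicates rests on the labels alone. The named genes are the 5 members, the 2 detected genes nearest to each in log2 CPM, detected miRNA genes within 1 Mb, Mir483, the Mir344 genes and arms sharing a seed. Undetected neighbours of the Gnas pair were named after their values were seen. The members and lists were chosen with earlier results of these data known. Counts merge both arms of a hairpin, carry no molecular identifiers, and hold the ligation preferences of small RNA libraries, which act on ranks between genes.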

Additional observations from a re-analysis of the deposited data

How the results depend on the processing

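Without Mir99a, the most abundant gene, in the denominator, Mir335 averaged 68230, Mir296 7187 and Mir298 5081 CPM, the members' share was 8.06%, and the Mir335 ratio of replicate 1 to replicate 2 was 0.876. Without genes that share a run of 20 bases the share was 7.57%. Over all reads tallied, a denominator chosen after seeing the data, Mir335 averaged 27150, Mir296 2866, Mir298 2026 and Mir675 22.0 CPM, the share was 3.21% and the Mir335 ratio 0.902. These shifts follow from the size of the denominators. With DESeq2 1.42.0 size factors the ratios of Mir335, Mir296 and Mir298 were 0.864, 1.16 and 1.11. The genes at least 1.5-fold apart numbered 61 of 393, 22 of 275 with a mean of at least 100 counts, 157 of 616 with at least 1 count in both libraries, and 18 of 393 at 2-fold, where Mir184 was the member past the fold. In the remaining 59 comparisons with an alternative (both strands, TMM, a pseudocount of 1, other count minimums, and the denominators and scalings above) values moved by less than their spread or interval, and counts by less than 1.5 times. Without replicate 1 or 2, the share was 6.69% to 7.25%, 4 to 5 members were detected, and Mir184 was at 4.05 or 1.81 CPM, against a mean of 2.93. With 2 libraries, leaving out either one cannot move a mean by more than its SD, so these values say nothing about stability. No paired analysis was possible because the series has 1 group. Depth limits Mir184 most, and Mir675 to a lesser extent.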
